A study of Homo sapiens with 15 samples.

Results

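Pyrimidine salvage and catabolism are described here through a list of 8 genes: the nucleoside phosphorylases UPP1 and TYMP, the cytidine deaminase CDA, the uridine-cytidine kinases UCK1, UCK2 and UCKL1, the UMP/CMP kinase CMPK1 and the dihydropyrimidine dehydrogenase DPYD. They were found by gene name in the deposited table of 15790 genes, where 7 of the 8 were matched, and CDA is not analysed here. The genes were chosen by name, as a pathway, and with the group levels and differences of these libraries in view. Counts over them are therefore descriptions and carry no independent support.

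Gene expression was measured by RNA sequencing in 15 libraries, 3 in each of 5 groups. RPTEC/TERT1, an immortalized line of human renal proximal tubular epithelial cells, was grown alone on LN/FN-silk membranes (silk monocultures) or together with fHDF/TERT166, an immortalized line of human foreskin dermal fibroblasts (silk co-cultures). The same pair of cultures was grown on LN/PC membranes (LN/PC monocultures and LN/PC co-cultures), and the fifth group was fHDF/TERT166 alone (fibroblast monocultures). Each is a single immortalized line. The 4 epithelial groups differ in membrane and in the presence of the fibroblast line, and fibroblast monocultures differ from them in the cell line itself and so in its source. Seeding densities were 140000 epithelial cells and 14000 fibroblasts per cm2, harvest was at day 14, and 3 to 8 membranes were pooled into a sample. Silk membranes were scraped and LN/PC membranes were cut out, so membrane and way of harvest cannot be told apart. Whether replicates came from separate cultures is not stated, and p-values then measure only how far these samples spread, which may be technical.

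Uridine and cytidine can be reclaimed by kinases that put a phosphate back on the nucleoside, the salvage route, or broken down. For breakdown cytidine is first deaminated to uridine, by CDA, and a phosphorylase then splits the nucleoside into a base and a sugar phosphate: UPP1 acts on uridine, and TYMP, also called platelet-derived endothelial cell growth factor, acts on thymidine. DPYD then reduces uracil and thymine, the rate-limiting step of their breakdown, and CMPK1 carries salvaged and newly made UMP and CMP to the diphosphate. In the kidney, cells of the proximal tubule take up nucleosides from the filtrate.

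Values below are normalized counts, obtained by undoing the log2 transform of the deposited values. In units of 1e6, libraries held 9.08 to 12.7 normalized counts, or about 8.34 to 14.2 assigned reads. The share of fibroblast RNA, estimated from 112 genes restricted to the fibroblast monocultures, was 13.9%, 9.81% and 15.2% in LN/PC co-cultures against 0.0239%, 0% and 0.113% in silk co-cultures (two-sided exact permutation test, p = 0.1, a value that this design cannot go below). Taken from the summed markers instead of their median, the share was 22.4%, 14.5% and 25.8% in LN/PC co-cultures. Mixtures below use the median, and the ratios from the other share stand in parentheses or beside them. The summed level of 13 fibroblast markers was 57.2 to 159 in the epithelial monocultures, 139 to 788 in silk co-cultures, 95159 to 172140 in LN/PC co-cultures and 498320 to 568250 in fibroblast monocultures. Of 14 renal epithelial markers, 6 (CDH1, CDH6, CDH16, KRT18, SLC17A1 and SLC17A3) were at 0 in every fibroblast library, whereas ANPEP, AQP1 and CUBN had higher means in fibroblasts than in any epithelial group. In bulk libraries fewer cells of a type and less RNA per cell cannot be told apart. A gene was called when its adjusted p was under 0.05 by limma with Benjamini-Hochberg adjustment over all tested genes, and every adjusted p below comes from that fit. Differences are in log2 units of (normalized count + 1), with their standard errors (SE).

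Since UPP1 had the smallest adjusted p of the 7 genes between epithelial groups, the sequence just before its starts is shown. The gene lies on chromosome 7 from 48088628 to 48108733, on the plus strand (GENCODE v29, GRCh38, as for all positions here). The windows are those that RefSeq (GRCh38.p14) gives, 250 bases before each start. RefSeq gives 3 starts for UPP1, and the window of the third, 11 bases downstream of the second one printed, lies almost wholly within it and is not printed. Only the leading run that lies in no GENCODE v29 exon is printed. Capitals mark matches to motifs searched on both strands.
UPP1 chr7:48088454-48088627 (+): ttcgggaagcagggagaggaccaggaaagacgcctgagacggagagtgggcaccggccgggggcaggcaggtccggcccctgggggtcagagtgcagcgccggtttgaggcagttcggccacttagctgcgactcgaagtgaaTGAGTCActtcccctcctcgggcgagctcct
UPP1 chr7:48089004-48089211 (+): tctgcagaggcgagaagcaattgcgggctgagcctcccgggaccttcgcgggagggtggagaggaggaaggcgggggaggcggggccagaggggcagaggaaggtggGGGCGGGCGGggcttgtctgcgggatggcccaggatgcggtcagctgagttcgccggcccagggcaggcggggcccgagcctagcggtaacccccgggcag

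The capitals in the first run are 1 match to the AP-1 motif TGANTCA, which 6.57% of 35116 windows of 250 bases hold. That motif was added to the search after the sequence had been seen. The same window held 1 match to the NF-kB motif (GGGA, any 2 bases, TTCC), present in 1.4% of windows, in its exonic end, which is not printed. The capitals in the second run are overlapping matches to the GC box GGGCGG, a motif held by 42.6% of windows. None of the 3 windows matched the interferon-stimulated response element core (GAAA, any 2 bases, GAAA; 3.02% of windows), the STAT motif TTCNNNGAA (6.57%) or the hypoxia response element core ACGTG (18.5%). A match is a string of letters, and binding was not measured.

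**Figure D1:**
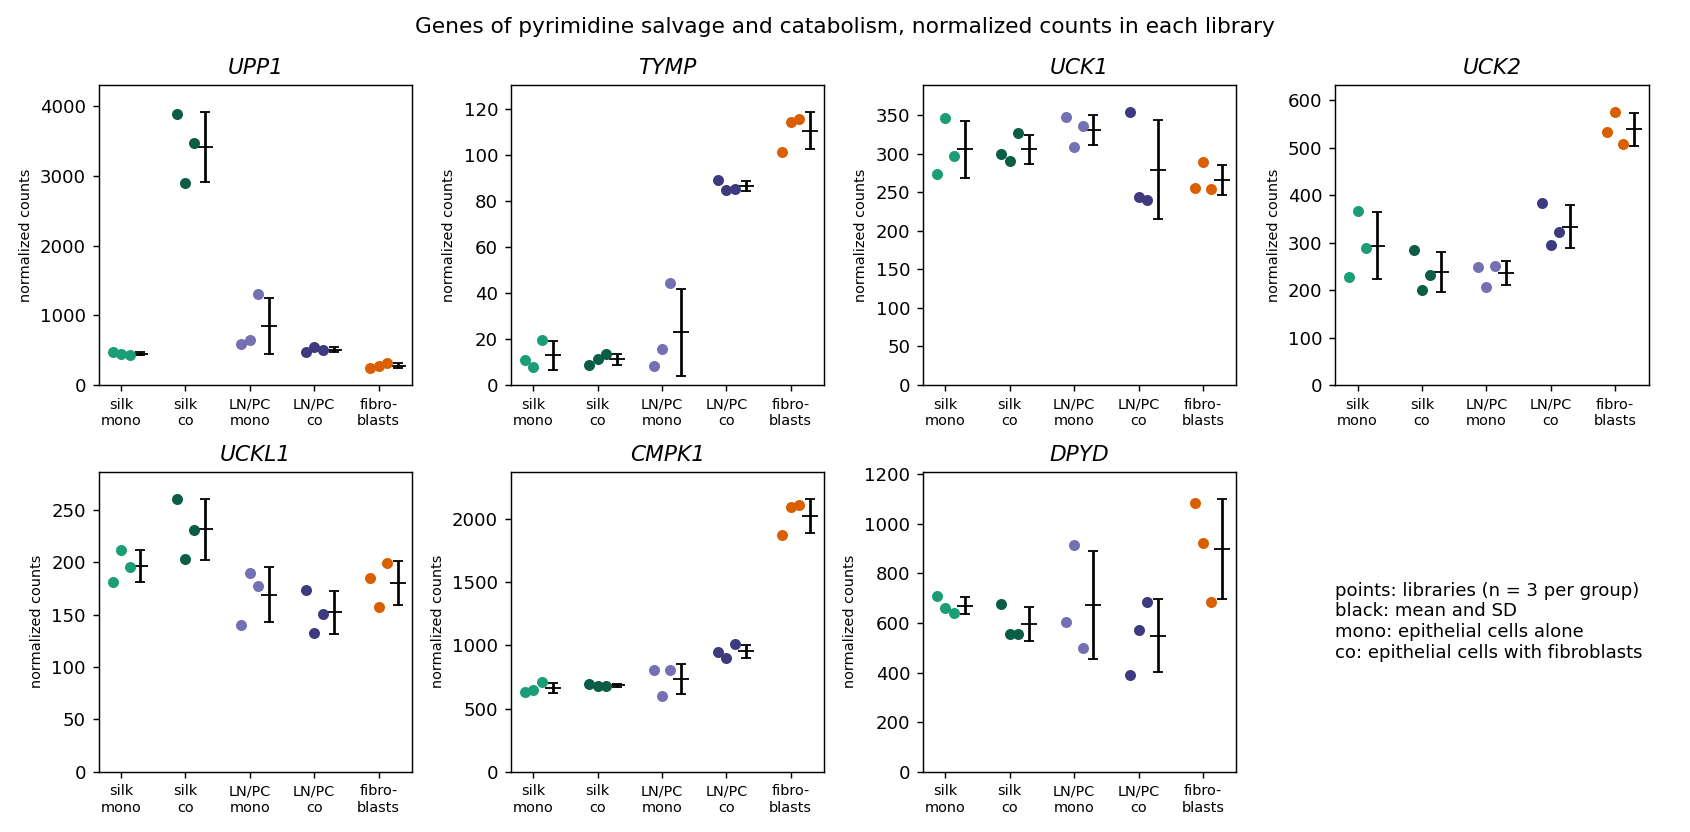
Normalized counts (y axes, linear and starting at 0) of the 7 genes in each library of the 5 groups (x axes); points are libraries, n = 3 per group, and the black mark is the mean with its SD. UPP1 stands at 2897 to 3887 in silk co-cultures and at 1309 or less elsewhere, and TYMP is at 84.7 or more in LN/PC co-cultures and fibroblasts and at 44.4 or less elsewhere.

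UPP1, the uridine phosphorylase gene, had its highest level in silk co-cultures. Its normalized counts were 3887, 2897 and 3469 in silk co-cultures and 475, 447 and 434 in silk monocultures, 7.57-fold apart by the means. No silk co-culture library overlapped with a library of another group. The fitted difference between co-culture and monoculture on silk was 2.91 ± 0.23 (SE), with an adjusted p of 1.58e-06, which placed UPP1 6th by p and 21st by size among 14433 tested genes. It was the 1 gene of the 7 called in that comparison, where 3.78% of all tested genes were called. In each of the 6 fits that left out a library of these groups, UPP1 was again called. Fibroblast monocultures held 245, 267 and 316 normalized counts of UPP1, below every epithelial library, and a mixture of silk monoculture and fibroblast RNA at the estimated share would have held 452. The silk co-culture libraries stood 6.41 to 8.61 times above that mixture.

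On LN/PC, UPP1 was not higher in co-culture. LN/PC monocultures held 586, 647 and 1309 normalized counts and LN/PC co-cultures 468, 548 and 510, so every co-culture library lay below every monoculture library. The third LN/PC monoculture stood well above the other libraries of its group. The fitted difference of -0.64 ± 0.23 was not called (adjusted p = 0.0795), and it was called when LN/PC monoculture 1 (-0.86, adjusted p = 0.0339) or 2 (-0.78, adjusted p = 0.0372) was left out, or when libraries were scaled to their totals (-0.80, adjusted p = 0.0147). Measured levels were 0.61 to 0.693 of those of the corresponding mixture (0.651 to 0.729 with the share from summed markers). TYMP was the 1 gene of the 7 called in the LN/PC comparison, against 12.5% of all genes.

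The effect of co-culture on UPP1 differed between the membranes. The interaction, the effect on silk minus that on LN/PC, was 3.55 ± 0.32 (adjusted p = 4.17e-06, 20th by p), and UPP1 was the 1 gene of the 7 called, against 7.73% of all genes. Between the co-cultures UPP1 was 6.72-fold higher on silk by the means, with a fitted difference of 2.74 ± 0.23 and an adjusted p of 3.04e-07. In that comparison 4 of the 7 genes were called, UPP1 and UCKL1 higher and TYMP and CMPK1 lower on silk, against 36.1% of all genes. Between the monocultures the order was the opposite, with UPP1 lower on silk by 0.81 ± 0.23 log2 units (adjusted p = 0.0318). It was the 1 gene of the 7 called there, against 11.7% of all genes. That call was lost without LN/PC monoculture 3 (-0.45, adjusted p = 0.124), without silk monoculture 1 (-0.85, adjusted p = 0.0659), 2 (-0.80, adjusted p = 0.0790) or 3 (-0.78, adjusted p = 0.0796), and in a fit of these 6 libraries alone (adjusted p = 0.0875). The order of the group means was silk co-culture, LN/PC monoculture, LN/PC co-culture, silk monoculture and fibroblasts. Among neighbours in that order LN/PC co-cultures and silk monocultures overlapped, and the others did not.

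Some markers of other cell types were also higher in silk co-cultures than in silk monocultures. In silk co-cultures against silk monocultures 2 of 13 fibroblast markers were called, both higher, beside 3.78% of all tested genes called in either direction. POSTN and TWIST1 were at 0 in every silk co-culture library. Of 7 markers of endothelium, leukocytes and other nephron segments 2 were measured. CD68, a lysosomal protein best known from macrophages, stood at 757, 784 and 885 in silk co-cultures and at 196, 174 and 85.8 in silk monocultures (2.49 ± 0.27, adjusted p = 4.27e-05), and was at 523 to 581 in fibroblasts. The endothelial marker PECAM1 was between 1.18 and 11.9 in these 6 libraries. The summed level of CD68 and PECAM1 was 86.9 to 206 in silk monocultures and 760 to 897 in silk co-cultures. On LN/PC their summed level was 195 to 339 in monocultures and 353 to 544 in co-cultures. CD68 was called higher with co-culture there too (1.07), where UPP1 was not higher. Only RPTEC/TERT1 and fHDF/TERT166 were cultured, and CD68 was present in fibroblasts grown alone. CD68 in silk co-cultures was 4.98 to 5.81 times the level of the mixture at the estimated fibroblast share. On LN/PC it was 1.34 to 2.02 times that of the mixture. Whether another cell type was present was not tested. Which cells held the CD68 transcripts, and their part in the UPP1 difference, was not tested.

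The genes whose profile over all 15 libraries lay closest to that of UPP1 were NDRG1, DOCK9 and OPN3. Likeness was measured as the root mean square distance between log2 profiles centred on each gene's mean, among genes with a mean of at least 100, and came to 0.576, 0.593 and 0.638 log2 units. NDRG1 also had its highest mean in silk co-cultures (20500 against 3887 in silk monocultures), but its mean on LN/PC was higher in co-cultures (6223) than in monocultures (3499), unlike UPP1.

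TYMP, the thymidine phosphorylase gene (chromosome 22, 50525752 to 50530056, minus strand), was high in fibroblasts and in LN/PC co-cultures. It held 101, 114 and 116 normalized counts in fibroblast monocultures and 88.9, 84.7 and 85.3 in LN/PC co-cultures. LN/PC monocultures held 8.34, 15.7 and 44.4, silk monocultures 11.1, 7.73 and 19.7, and silk co-cultures 8.82, 11.1 and 13.5. The last 3 groups overlapped with each other, and the first 2 overlapped with no other group. TYMP was 3.78-fold higher in co-culture on LN/PC by the means, with a fitted difference of 2.18 ± 0.50 and an adjusted p of 0.00748, while on silk the difference was -0.11 ± 0.50 (adjusted p = 0.944, 95% interval -1.17 to 0.94). Between the co-cultures TYMP was lower on silk by 2.86 ± 0.50 (adjusted p = 0.000412).

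TYMP is set here beside the share of fibroblast RNA. Fibroblasts exceeded the epithelial monocultures by 2.82 ± 0.45 (adjusted p = 0.000245), and fibroblast RNA was 9.81% to 15.2% of the LN/PC co-cultures. The gain of TYMP over the LN/PC monocultures was 75.5%, 70.7% and 71.4% of the gap between LN/PC monocultures and fibroblasts, and its level was 2.36 to 2.70 times that of the mixture (1.88 to 2.39 times with the share from summed markers). With the estimated fibroblast RNA subtracted, the difference on LN/PC was 2.12 (adjusted p = 0.0183). The single markers behind the share varied, from a lower quartile of 6.67% to an upper of 22.7% in the first library, 4.32% to 15.1% in the second and 9.23% to 26.1% in the third. Which cells held the TYMP transcripts was not tested.

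The difference between membranes in the TYMP effect did not pass the test. The interaction was -2.30 ± 0.70 with an adjusted p of 0.0568, and -2.92 with an adjusted p of 0.00577 without LN/PC monoculture 3, whose TYMP level was the highest of the epithelial monocultures. It was also called with the replicate number as a block (adjusted p = 0.0443) and on the deposited log2 values (adjusted p = 0.0143), and 5 of 21 alternatives called it in all. TYMP shares exonic sequence on the same strand with SCO2, a mitochondrial copper chaperone gene, and with ODF3B, which is not analysed here. Reads could therefore be split among these genes. SCO2 group means ran from 92.0 to 112 in the epithelial groups and stood at 147 in fibroblasts, a narrower range than for TYMP. The closest profiles to TYMP were those of FKBP11 (0.426), GLIPR1 (0.477) and FKBP7 (0.526 log2 units).

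**Figure D2:**
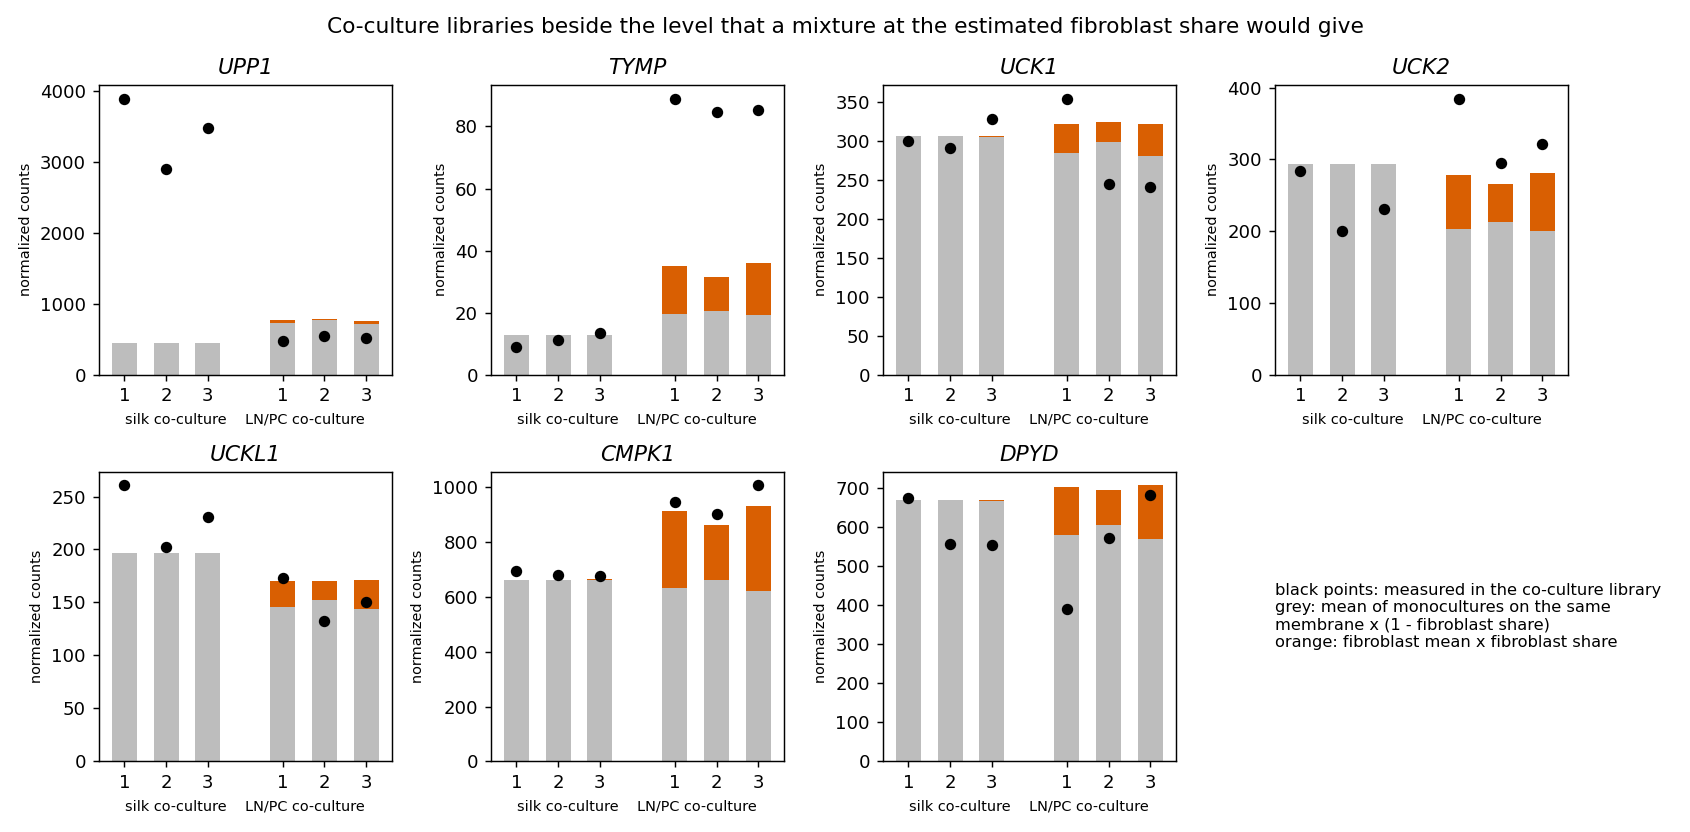
Normalized counts (y axes, linear from 0) of each gene in the co-culture libraries (x axes, replicates 1 to 3 on silk and on LN/PC), as black points over bars that stack the monoculture mean on the same membrane times 1 minus the fibroblast share (grey) and the fibroblast mean times the share (orange). UPP1 on silk is 6.41 to 8.61 times and TYMP on LN/PC 2.36 to 2.70 times the bar, and CMPK1 on LN/PC is 1.04 to 1.08 times the bar.

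CMPK1, the kinase shared by salvage and new synthesis (chromosome 1, 47333797 to 47378839, plus strand), was highest in fibroblasts. Its normalized counts were 1870, 2089 and 2110 in fibroblast monocultures, 946, 902 and 1007 in LN/PC co-cultures and 802, 599 and 805 in LN/PC monocultures. Silk monocultures held 630, 650 and 710 and silk co-cultures 696, 679 and 677. Fibroblasts lay above the epithelial monocultures by 1.54 ± 0.12 (adjusted p = 7.27e-07), and LN/PC co-cultures lay between the fibroblasts and the 3 other groups without overlap. The level in LN/PC co-cultures was 1.04 to 1.08 times that of the mixture, and 0.925 to 0.979 times with the share from summed markers. The lower level on silk between co-cultures (-0.47 ± 0.14, adjusted p = 0.0176) became -0.21 (adjusted p = 0.268) with the fibroblast RNA subtracted and -0.34 (adjusted p = 0.0760) with scaling to totals. It was also lost, at adjusted p of 0.0529 to 0.0608, without silk co-culture 2 or 3 or LN/PC co-culture 1 or 3, while the difference stayed between -0.48 and -0.43. The rise with co-culture on LN/PC, 0.38 ± 0.14, was not called (adjusted p = 0.0959). The closest profiles were those of PPFIBP1 (0.132), SHC1 (0.147) and RBFOX2 (0.155 log2 units).

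The uridine-cytidine kinases, which start the salvage of uridine and cytidine, differed less between groups than the phosphorylases. UCK2 (chromosome 1, 165827531 to 165911618, plus strand) had its highest values in fibroblasts, at 533, 575 and 507, against 207 to 367 in the epithelial monocultures (1.04 ± 0.16, adjusted p = 0.000184). LN/PC co-cultures held 384, 296 and 321 and LN/PC monocultures 249, 207 and 251, which did not overlap, yet the difference of 0.50 ± 0.20 was not called (adjusted p = 0.131). On silk the co-cultures held 284, 200 and 231 and the monocultures 227, 367 and 288, and the 2 groups overlapped. UCK2 in LN/PC co-cultures was 1.11 to 1.38 times the mixture (1.02 to 1.27 with the share from summed markers).

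UCK1 (chromosome 9, 131523801 to 131531268, minus strand) was the flattest of the 7, with group means from 266 in fibroblasts to 331 in LN/PC monocultures, and every group overlapped with its neighbour in the order. Its largest difference between epithelial groups was -0.27 ± 0.18, for co-culture on LN/PC (adjusted p = 0.369, 95% interval -0.65 to 0.11). UCKL1, a member of the same kinase family (chromosome 20, 63939829 to 63956415, minus strand), was higher on silk between the co-cultures, at 260, 203 and 231 against 173, 133 and 151 on LN/PC, a difference of 0.60 ± 0.20 (adjusted p = 0.0254). That call was lost without silk co-culture 1 (adjusted p = 0.103) or 3 (adjusted p = 0.0732) or LN/PC co-culture 2 (adjusted p = 0.0881) or 3 (adjusted p = 0.0504). The effect of co-culture on UCKL1 within either membrane was not called (0.23 ± 0.20 on silk and -0.15 ± 0.20 on LN/PC). The closest profiles were those of GTPBP6, listed under 2 identifiers (0.130 and 0.131), and ADIPOR1 (0.169 log2 units). UCK1 and UCK2 share exonic sequence on the opposite strand with POMT1 and TMCO1. The kit keeps strand, and whether the counting used it is not given in the sources used here.

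DPYD, the gene of the first step in uracil and thymine breakdown (chromosome 1, 97077743 to 97995000, minus strand), was called in none of the 6 comparisons. Its values were 706, 658 and 642 in silk monocultures, 675, 556 and 555 in silk co-cultures, and 391, 572 and 683 in LN/PC co-cultures. LN/PC monocultures held 602, 915 and 500, a wider spread than any difference between epithelial group means. Fibroblasts held 1085, 923 and 685, with a difference from the epithelial monocultures of 0.42 ± 0.20 (adjusted p = 0.0867). That difference was called without the third fibroblast library (0.60, adjusted p = 0.0285) or without LN/PC monoculture 2 (0.54, adjusted p = 0.0111). The co-culture effect had 95% intervals of -0.64 to 0.29 on silk and -0.75 to 0.18 on LN/PC.

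In the comparison of fibroblasts with epithelial monocultures, 4 of the 7 genes were called, TYMP, CMPK1 and UCK2 higher and UPP1 lower in fibroblasts (-1.12 ± 0.22, adjusted p = 0.00121), against 58.3% of all genes. UCK1, not called at -0.26 (adjusted p = 0.121), was called lower with scaling to totals (-0.63, adjusted p = 0.00203) and with upper-quartile scaling (-0.41, adjusted p = 0.0185). The medians over the 7 genes were -0.12 between monocultures, 0.15 between co-cultures, 0.01 for co-culture on silk, -0.15 for co-culture on LN/PC and 0.42 for fibroblasts, beside medians over all tested genes of 0.03, 0.03, 0.00, -0.04 and -0.02. Divided by the length of the longest annotated transcript, the order of levels also changed between groups. In silk co-cultures UPP1 led with 1769 ± 257 normalized counts per kb (SD, n = 3), ahead of CMPK1 at 234 ± 3.54. In fibroblasts CMPK1 led with 690 ± 45.5 per kb, ahead of DPYD at 204 ± 45.7 and UPP1 at 143 ± 18.8. In silk monocultures UPP1 (234 ± 10.8) and CMPK1 (226 ± 14.2) were level, and TYMP was lowest at 7.87 ± 3.79.

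**Figure D3:**
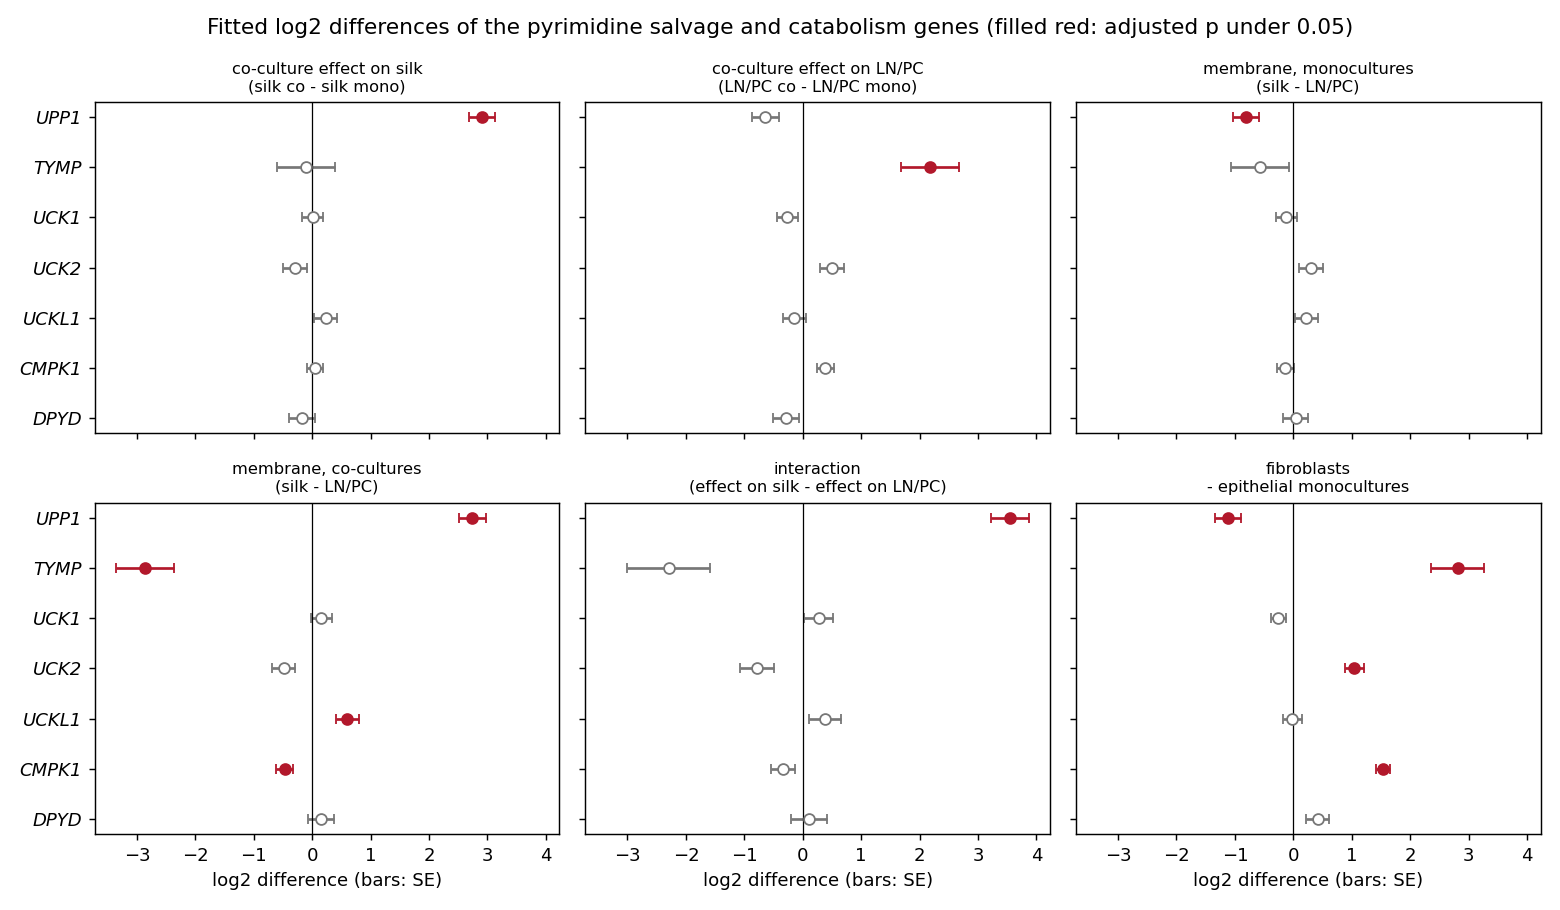
Fitted log2 differences (x axes) of the 7 genes in the 6 comparisons, 1 panel each, with bars of 1 SE and filled red points for an adjusted p under 0.05. UPP1 is the single filled point for co-culture on silk and in the interaction, TYMP for co-culture on LN/PC, and 4 genes are filled between co-cultures and for fibroblasts.

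The genes around this pathway were followed by role. De novo synthesis, which builds UMP and CTP from small precursors, was represented by 5 genes (CAD, DHODH, UMPS, CTPS1 and CTPS2). None was called for co-culture on silk or on LN/PC or between monocultures, beside 3.78%, 12.5% and 11.7% of all genes. With 5 genes such counts lie near those over all genes. The medians were -0.16, -0.14 and 0.06. UMPS, which makes UMP, was lower on silk between co-cultures (-0.74 ± 0.24, adjusted p = 0.0271; up to 0.101 without silk co-culture 2 or 3 or LN/PC co-culture 2 or 3) and stood at 330, 235 and 255 there against 411, 481 and 466 on LN/PC. DHODH was lower in fibroblasts (-0.96 ± 0.24, adjusted p = 0.00550).

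Nucleoside diphosphate kinases add the last phosphate to UDP and CDP, and 3 of them rose with co-culture on LN/PC. Of 13 other salvage genes measured, these 3 were called, all higher, beside 12.5% of all genes. They were NME4 (1.01 ± 0.19, adjusted p = 0.00158), NME1 (0.78 ± 0.17, adjusted p = 0.00467) and NME2 (0.67 ± 0.17, adjusted p = 0.0143; up to 0.0760 without LN/PC monoculture 1 or LN/PC co-culture 1 or 3). NME4 held 806, 670 and 780 in LN/PC co-cultures and 342, 348 and 429 in LN/PC monocultures, with no overlap. Fibroblasts held 872, 989 and 922, and the co-cultures stood at 1.57 to 1.79 times the mixture (1.48 to 1.62 with the share from summed markers). None of the 13 was called for co-culture on silk, where 3.78% of all genes were. The thymidine kinases, which take up the nucleoside that TYMP cleaves, did not pass the test in either co-culture comparison: TK1 differed by -0.77 ± 0.24 on silk (adjusted p = 0.0970) and 0.06 on LN/PC, and TK2 by -0.22 and 0.13. TK1 on silk was called without silk monoculture 1 (-0.98, adjusted p = 0.0396) and in a fit of the compared libraries alone (adjusted p = 0.0438).

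Nucleotidases take phosphates off nucleotides. Those of the NT5 family act on monophosphates and release nucleosides, whereas the ENTPD enzymes and CANT1 act on tri- and diphosphates. Of 13 measured, none was called for co-culture on silk and 2 were higher for co-culture on LN/PC, beside 3.78% and 12.5% of all genes, so the counts lie near those over all genes. NT5E (CD73), the membrane enzyme that acts outside the cell, held 3392, 3058 and 3823 in LN/PC co-cultures against 1854, 1819 and 1739 in LN/PC monocultures (0.92 ± 0.13, adjusted p = 0.000141), with 5885 to 6654 in fibroblasts. Its level was 1.36 to 1.53 times that of the mixture (1.20 to 1.28 with the share from summed markers). NT5C3A, a cytosolic enzyme that prefers pyrimidine nucleotides, was higher by 0.71 ± 0.19 (adjusted p = 0.0221; up to 0.0903 without LN/PC monoculture 1 or 2 or LN/PC co-culture 1 or 2). Between monocultures NT5C2 was lower (-0.64 ± 0.19, adjusted p = 0.0404) and ENTPD6 higher (0.53 ± 0.15, adjusted p = 0.0327) on silk, and without LN/PC monoculture 1 neither was called (adjusted p = 0.114 and 0.0738). NT5C2 was not called without LN/PC monoculture 3 or any of the 3 silk monocultures either (adjusted p up to 0.193), nor ENTPD6 without LN/PC monoculture 2 or silk monoculture 2 or 3 (adjusted p up to 0.0926), and neither in a fit of the compared libraries alone (adjusted p = 0.107 and 0.119).

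Of 4 measured carriers of the SLC29 family, 3 were lower in fibroblasts than in the epithelial monocultures, beside 58.3% of all genes called in either direction. Members of this family move nucleosides across membranes, but not all of them carry uridine and cytidine. The remaining carrier, SLC29A3, was not called (0.38 ± 0.30, adjusted p = 0.306). SLC29A1 (ENT1), the main equilibrative carrier, held 111, 172 and 156 normalized counts in fibroblasts against 642 to 1060 in the epithelial monocultures (-2.54 ± 0.17, adjusted p = 1.67e-07). SLC29A2 held 0, 6.97 and 0.968 in fibroblasts and 135 to 265 in the epithelial monocultures, and SLC29A4 5.95 to 12.6 against 336 to 1236. Neither comparison of co-culture with monoculture called any of the 4 carriers measured (SLC29A1: 0.46 ± 0.16 on silk and -0.40 ± 0.16 on LN/PC). The interaction for SLC29A1 was called (0.86 ± 0.23, adjusted p = 0.0296). It was lost in 8 of 21 alternatives, with fibroblast RNA subtracted (0.70, adjusted p = 0.0958) and without silk monoculture 1, any of the 3 silk co-cultures, LN/PC monoculture 3 or LN/PC co-culture 1 or 3 (adjusted p up to 0.0911). SLC29A4 was lower on silk between monocultures (-0.94 ± 0.24, adjusted p = 0.0225; 0.0872 without silk monoculture 3). Between co-cultures 2 of the 4 carriers were called higher and 1 lower on silk, beside 36.1% of all genes. SLC29A1 (0.67 ± 0.16, adjusted p = 0.00501) and SLC29A2 (0.90 ± 0.23, adjusted p = 0.00597) were higher, in all 16 alternatives too. SLC29A4 was lower (-0.90 ± 0.24, adjusted p = 0.00938), and not called without LN/PC co-culture 2 (adjusted p = 0.0565). The concentrative carriers SLC28A1, SLC28A2 and SLC28A3 are not analysed here.

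Of 8 genes of thymidylate and deoxynucleotide synthesis and breakdown, 1 fell and none rose with co-culture on silk. Their median was -0.46 beside 0.00 over all genes, of which 3.78% were called. Between co-cultures 3 of the 8 were lower on silk and none higher, beside 36.1% of all genes. These were RRM2, DUT and SAMHD1, and SAMHD1 breaks deoxynucleotides down. The difference of SAMHD1 there, -1.53 ± 0.32, became 0.23 (adjusted p = 0.727) with fibroblast RNA subtracted. That of RRM2 was not called without silk co-culture 3 (-1.05, adjusted p = 0.0766) or LN/PC co-culture 1 (-1.17, adjusted p = 0.0556). RRM2, the inducible small subunit of ribonucleotide reductase, held 263, 192 and 124 in silk co-cultures against 457, 844 and 721 in silk monocultures (-1.82 ± 0.39, adjusted p = 0.0120; up to 0.0950 without silk monoculture 2 or 3 or silk co-culture 3). On LN/PC none of the 8 was called, and RRM2 differed by -0.28 ± 0.39. The RRM2 interaction was not called (-1.54 ± 0.55, adjusted p = 0.105).

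Of 9 genes for enzymes that use UTP, CTP or UDP-sugars to activate or convert sugars and lipid precursors, 1 rose with co-culture on silk, and 1 rose and 1 fell on LN/PC, beside 3.78% and 12.5% of all genes called. On silk, UGDH, which makes UDP-glucuronate, stood at 1366, 1368 and 1339 in co-cultures against 737, 820 and 787 in monocultures (0.80 ± 0.19, adjusted p = 0.0228). That call was lost when any 1 of the 6 libraries was left out, at adjusted p of up to 0.0950. Between monocultures UGDH was lower on silk (-0.70 ± 0.19, adjusted p = 0.0251), a call lost in 6 of 15 alternatives. On LN/PC, UAP1, which makes UDP-N-acetylglucosamine, held 1061, 549 and 946 in co-cultures against 170, 200 and 191 in monocultures (2.13 ± 0.24, adjusted p = 8.34e-06). Fibroblasts held 1005 to 1137, and the co-cultures were 2.02 to 3.44 times the mixture (1.75 to 2.78 with the share from summed markers). CDS1, which uses CTP to make CDP-diacylglycerol, fell there (-1.28 ± 0.30, adjusted p = 0.00916; just past the threshold without LN/PC co-culture 1, at -1.14) and was at 0 in every fibroblast library.

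Of the later steps of base breakdown, ABAT and ALDH6A1 were measured, and DPYS, UPB1, AGXT2 and the second uridine phosphorylase UPP2 are not analysed here. ABAT, the aminotransferase that acts on beta-alanine, was lower with co-culture on silk, at 22.3, 28.7 and 19.6 against 63.5, 101 and 53.7 (-1.55 ± 0.42, adjusted p = 0.0480). That call was lost when any 1 of the 6 libraries was left out (adjusted p up to 0.214), with a pseudocount of 0.5 (adjusted p = 0.0522) and with no filter on low values (adjusted p = 0.0579). With fibroblast RNA subtracted the difference stayed at -1.55 while its SE grew to 0.93 (adjusted p = 0.473). ALDH6A1, which acts on the aldehydes formed after that step, was higher on silk between co-cultures (1.17 ± 0.19, adjusted p = 0.000208).

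**Figure D4:**
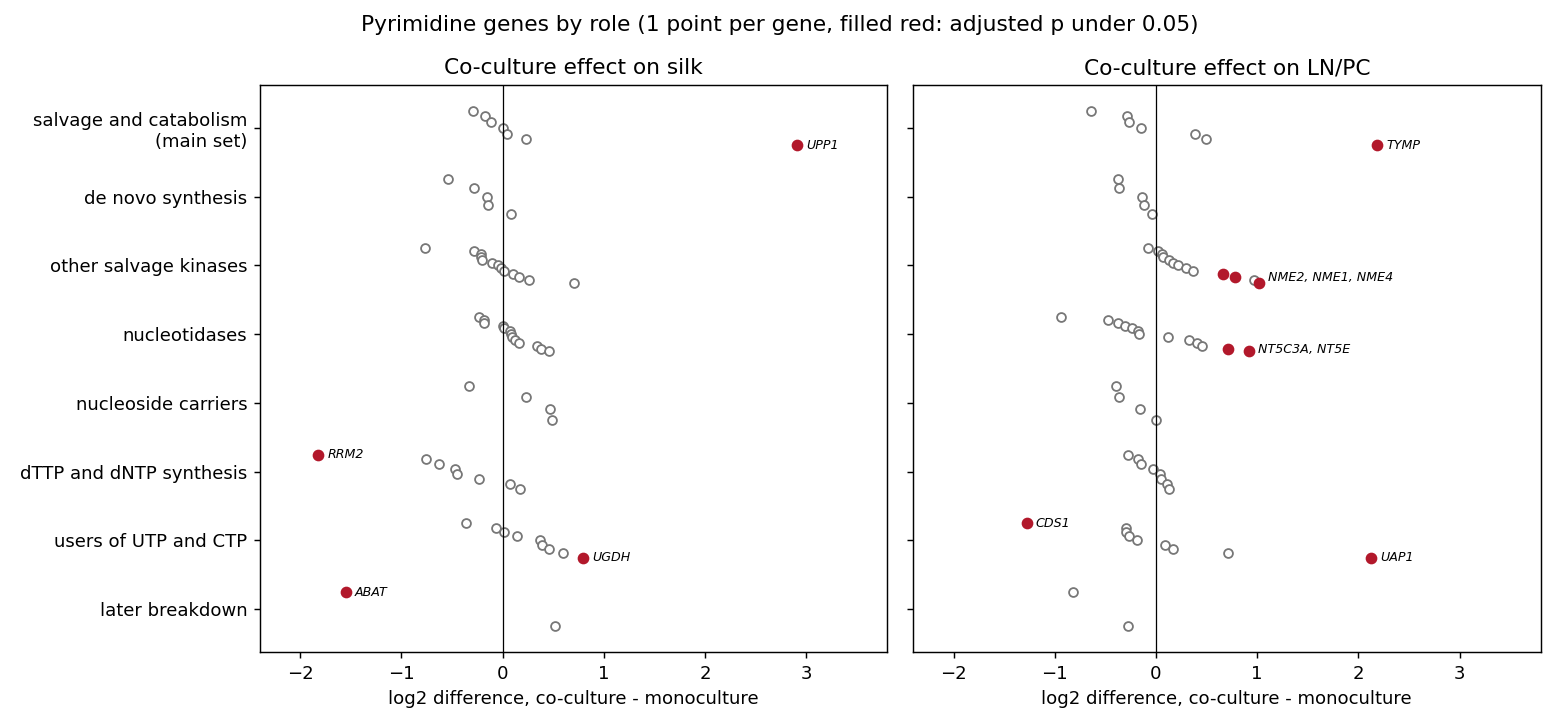
Log2 differences between co-culture and monoculture (x axes) on silk (left) and on LN/PC (right) for 1 point per gene, in rows by role (y axis); filled red points, which are named, have an adjusted p under 0.05. On silk the called genes are UPP1 and UGDH, higher, and RRM2 and ABAT, lower. On LN/PC they are TYMP, 3 NME genes, NT5C3A, NT5E and UAP1, higher, and CDS1, lower. The row of dTTP and dNTP synthesis also holds SAMHD1, which breaks deoxynucleotides down.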

How the data were processed

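Poly-A RNA was sequenced from 15 libraries with a directional kit, per the labels' protocols. The submitters' processing notes name Salmon 1.10.3 and DESeq2; their genome build is not given in the sources used here. As deposited by the authors, the log2 values share a floor of 5.53664461, as a variance-stabilizing transform leaves them, and were inverted to normalized counts (median ratio to gene means 1.01175 in every library). A linear scale had been foreseen, so this step was added. Only 27.0% to 45.9% of low values were within 0.1 of whole reads, and no count test was run.

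limma 3.58.1 (R 4.3.3, mean trend) was fitted to log2(value + 1) of genes reaching 10 in 3 libraries: 12 epithelial libraries (14433 genes, 5 contrasts) and 9 libraries for fibroblasts against the mean of the epithelial monocultures (14502 genes). This scale understates differences of low genes. The script was tested on simulated data. A mixture is the fibroblast share times the fibroblast mean plus the remainder times the monoculture mean; markers of the share had 1000 or more in fibroblasts and 100 times each epithelial monoculture. Mixture ratios with the share from summed markers were added after seeing the data. The 8 genes, the lists and the tests were chosen with earlier results of these data known. Some genes of the lists are not reported here and enter no list count. Genes named are the 7 matched, fixed enzymes and carriers, and the 3 nearest profiles of those called between epithelial groups. From each list and comparison up to 3 called genes could be named (largest change, a group mean of at least 50). Not all of these are described above. Among those left out are NME3, NT5C1A, ENTPD2, NT5DC1 and UGP2 between co-cultures, and DCTD, DCTPP1 and PCYT1A for fibroblasts. A gene not named may still have been called. Alternatives were other scalings, pseudocounts and filters, the deposited log2 values, a replicate block, the compared libraries alone, fibroblast RNA subtracted, and each library left out.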

Additional observations from a re-analysis of the deposited data

Results flagged for a closer look

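For 7 genes the effect of co-culture differed between silk and LN/PC by the interaction test of limma with Benjamini-Hochberg adjustment over all genes. They were 1 of the 7 main genes, 2 of 13 other salvage genes, 1 of 13 nucleotidases, 1 of 4 carriers and 2 of 9 users of UTP, CTP or UDP-sugars. None came from the other lists. Over all tested genes 7.73% were called, and the count is not read as a result about the pathway. The effect on silk minus that on LN/PC was 3.55 for UPP1 (adjusted p = 4.17e-06), 1.09 for UGDH (adjusted p = 0.0170) and 0.86 for SLC29A1 (adjusted p = 0.0296). It was -1.22 for NME4 (adjusted p = 0.00925), -1.54 for UAP1 (adjusted p = 0.00973), -1.06 for NME1 (adjusted p = 0.00982) and -0.84 for NT5E (adjusted p = 0.0113). UPP1, UGDH and SLC29A1 thus had the more positive effect on silk, and NME4, UAP1, NME1 and NT5E on LN/PC, the membrane whose co-cultures held 9.81% to 15.2% fibroblast RNA. All 4 of the latter had higher means in fibroblasts than in either epithelial monoculture. The interactions of NME4, UAP1 and NME1 were called in all 21 alternatives, subtraction of the fibroblast RNA included. That subtraction used the median share only, not the higher share from summed markers. The part of fibroblast RNA in these interactions was not tested. That of SLC29A1 was lost in 8 of the 21 (adjusted p up to 0.0958). The interaction of NT5E was not called with the fibroblast RNA subtracted (-0.64, adjusted p = 0.0659), nor that of UGDH without LN/PC monoculture 1 (1.00, adjusted p = 0.0504) or LN/PC co-culture 3 (1.00, adjusted p = 0.0546).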

How the results depend on the processing

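The calls of UPP1 for co-culture on silk, between co-cultures and in the interaction, and of TYMP for co-culture on LN/PC and between co-cultures, held under every alternative run. Over all genes followed, 111 of 1155 values of called genes lost the call and 21 of 906 values of uncalled genes gained one; SAMHD1 between co-cultures reversed, from -1.53 to 0.23, with fibroblast RNA subtracted. With only the compared libraries, 0 of the 7 genes and 754 genes in all (1685 as reported) were called between monocultures, 1174 (545) for co-culture on silk and 1088 (1807) for co-culture on LN/PC. With scaling to totals 2 of the 7 were called for co-culture on LN/PC (UPP1 and TYMP), and 2 in the interaction (UPP1 and TYMP) on the deposited log2 values, with a pseudocount of 10, with upper-quartile scaling and with the replicate block; with fibroblast RNA subtracted the interaction called 730 genes (1116). The difference in fibroblast share was -12.9 percentage points, -20.8 from summed markers and -14.5 to -11.8 with a library left out.

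Leaving out 1 library gave 0 to 1 of the 7 genes and 695 to 3208 of all genes between monocultures, 2 to 3 and 3415 to 4745 between co-cultures (4 and 5214 as reported), 1 and 207 to 559 for co-culture on silk, 1 to 2 and 753 to 2007 for co-culture on LN/PC, 1 to 2 and 465 to 1359 in the interaction, and 4 to 5 and 6865 to 8673 (4 and 8460 as reported) for fibroblasts. The lowest counts came without LN/PC monoculture 3, LN/PC co-culture 1, silk co-culture 3, LN/PC co-culture 1 and LN/PC co-culture 1, and the 3208 without LN/PC monoculture 2. Scaling to totals moved the share of calls that were higher from 50.4% to 63.1% between monocultures, 51.3% to 63% between co-cultures, 77.1% to 53.7% for co-culture on silk, 62.3% to 38.1% on LN/PC and 48% to 28.6% for fibroblasts, with medians over all genes of 0.14, 0.17, -0.13, -0.20 and -0.40. Upper-quartile scaling moved it to 66.2% for co-culture on silk and 30.4% (from 40.7%) in the interaction, and subtraction to 48.8% on LN/PC and 57.5% in the interaction. Of 30 pairs of libraries with the same replicate number 3 correlated above 0.1 (range -0.254 to 0.189), so the numbers are not taken to pair samples. With the replicate block NT5C2, ENTPD6 and AK9 were not called between monocultures (adjusted p = 0.0626, 0.0534 and 0.0776) and TYMP was called in the interaction (adjusted p = 0.0443).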
